A study of Mus musculus with 6 samples.

Results

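The 40 genes described here encode the proteins that carry a cell through G2 and mitosis: Cdk1 and its cyclins, the Polo-like and Aurora kinases, the spindle checkpoint, kinetochore subunits, spindle kinesins, cytokinesis factors, partners of the anaphase-promoting complex, and the transcription factors that switch the set on. They were chosen by name, as a module of known function, from the 25683 genes of the deposited table, and each of the 40 was found there. Earlier results of these data were known when they were chosen. RNA came from a primary line of cultured aortic cells of the mouse, labelled vascular smooth muscle cells, which contract the artery wall. The 3 knock-out libraries (1 to 3) carry the label Nt5e knock-out and the 3 wild-type libraries (4 to 6) the label Nt5e-WT, where Nt5e encodes CD73, the surface enzyme that makes adenosine from AMP. Both genotypes were grown in DMEM with 10% fetal bovine serum and antibiotics and then held at 0.5% serum for 48 h, so that every library comes from serum-starved cells. The strain, age and sex of the mice, how the knock-out was made, and whether a genotype is 1 isolate or several are not stated in the labels, and no library of cells in full serum was analysed here. Nothing in the labels says that libraries of a genotype are separate cultures or animals, so the p-values below cover only the spread among libraries, which may be technical.

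As background, most of these genes are transcribed in a wave that peaks in G2 and mitosis. In resting cells the DREAM complex, which holds p130 or p107 with an E2F protein, keeps them off, and in cycling cells B-MYB (Mybl2) and FOXM1 act with MuvB proteins to turn them on. MuvB binds the cell cycle homology region, an element near the start site that reads TTTGAA or TTCGAA, and NF-Y binds CCAAT boxes that lie upstream of it. Their transcripts are therefore widely read as a mark of how many cells in a culture are dividing. In bulk RNA fewer dividing cells and less RNA per dividing cell cannot be told apart.

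Both motifs are shown in the upstream sequence of 4 members, the most abundant per kilobase of exon among the members that hold a TTTGAA or TTCGAA match. The sequences are RefSeq promoter windows (GRCm38.p6), each on the minus strand of the genome, written 5′ to 3′ in the direction of the gene and ending at the last base before the start site. Capitals mark matches to either form of the homology region or to CCAAT, and a match on the opposite strand appears as its reverse complement, so that a CCAAT box there reads ATTGG. The positions are chr11:99024190-99024309 for Top2a, chr10:69352913-69353032 for Cdk1, chr9:70421555-70421731 for Ccnb2 and chr4:118437344-118437463 for Cdc20. In Ccnb2 the only TTTGAA match, at -167 to -162, lies upstream of its CCAAT matches, the reverse of the order described above. The order is mixed in the others. Cdc20 also has a CCAAT match downstream of its TTTGAA, at -8 to -4. The printed Top2a sequence opens with a TTCGAA match, at -120 to -115, upstream of the printed CCAAT matches. In Cdk1 the TTTGAA match at -71 to -66 lies upstream of a CCAAT match at -48 to -44.
Top2a: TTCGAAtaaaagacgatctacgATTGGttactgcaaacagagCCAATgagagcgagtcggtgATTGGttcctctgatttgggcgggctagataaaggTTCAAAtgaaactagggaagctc
Cdk1: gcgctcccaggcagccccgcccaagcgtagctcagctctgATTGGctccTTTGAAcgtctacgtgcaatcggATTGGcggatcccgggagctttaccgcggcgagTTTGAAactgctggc
Ccnb2: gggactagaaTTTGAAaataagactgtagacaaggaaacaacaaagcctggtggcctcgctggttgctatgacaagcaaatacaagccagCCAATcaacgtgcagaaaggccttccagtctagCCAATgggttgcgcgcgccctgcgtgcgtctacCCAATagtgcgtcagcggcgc
Cdc20: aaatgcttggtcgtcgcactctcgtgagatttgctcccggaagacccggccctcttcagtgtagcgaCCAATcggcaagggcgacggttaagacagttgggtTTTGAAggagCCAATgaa

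The RefSeq table held windows for 33 of the 40 members, 35 windows in all, and the 250 bases before each start site were searched on both strands. CCAAT occurred in 26 of the 35 windows (74.3%) against 33.8% of all 32851 promoter windows of that length, and 2 or more CCAAT matches occurred in 51.4% against 10.1%. TTTGAA or TTCGAA occurred in 12 of the 35 (34.3%) against 17.1% of all windows, and within 100 bases of the start site in 20.0% against 6.13%. Both elements stood together in 31.4% of members' windows and in 6.02% of all windows. These are matches of letters and not measured binding. The 11 members with TTTGAA or TTCGAA had a median log2 fold change of -1.08 (8 called lower), and the 22 without it had -1.26 (8 called lower, 1 higher), a difference that was not tested.

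The libraries held 19919095 to 23669252 exon reads each, and the members had between 4 and 1401 reads per library, so low members carry wide errors. The targeted gene followed the labels, with 22, 1 and 2 exon reads of Nt5e in knock-out cells against 615, 688 and 486 in wild-type cells. Libraries of a genotype were unequally alike. The biological coefficient of variation, the spread beyond counting noise, was 3.66% for knock-out library 2 against 3 and 3.49% for wild-type library 4 against 6, but 44.6% and 45.1% between knock-out library 1 and its 2 fellows. Knock-out library 1 was about as far from the wild type, at 44.2%, 48.0% and 43.7% for libraries 4, 5 and 6. The counts of calls are therefore also given without knock-out library 1, and after adding up the reads of the 2 libraries in each close pair. Levels below are CPM, exon read counts scaled to a common library size with a TMM factor, listed for knock-out libraries 1, 2 and 3 and then wild-type libraries 4, 5 and 6. Changes are log2 fold changes, knock-out over wild type, with their standard errors and adjusted p-values from the quasi-likelihood test of edgeR, adjusted by the Benjamini-Hochberg method over 12660 genes and called at an adjusted p of 0.05.

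Most of the mitotic genes were lower in the knock-out cells. Of the 40, 18 were called lower, by 1.59- to 3.91-fold, 1 was called higher, Cdc25b, and 21 did not pass. The share called lower among all tested genes was 13.7%, and the share called higher was 14.1%. The fitted change was negative for 37 of 40, with a median of -1.06 over the members and 0.02 over all tested genes. All 3 knock-out levels lay under all 3 wild-type levels for 31 members, where 25.5% of all tested genes did so, and above them for 2 members, Cdc25b and Kifc1, where 24.3% of all tested genes did so. Without knock-out library 1, 32 members were called lower and 1 higher, but the background rose as well, to 33.7% lower and 32.6% higher. With the close pairs summed, leaving 2 samples per genotype, edgeR called 0 members and 0.13% of all genes, and the median stayed at -1.06. At an unadjusted p under 0.05 in that fit, 13 members (32.5%) were lower and 1 higher, against 10.6% of all genes lower and 9.65% higher. Summing libraries of 1 title stem instead, knock-out 1 with 2 and wild-type 5 with 6, also left 2 samples per genotype. There edgeR called 16 members lower and 1 higher, where 14.8% of all genes were lower and 1858 of 13074 higher. In that fit Aurka, Tpx2 and Hmmr were no longer called, and Ube2c was (adjusted p = 0.044). Leaving out any library other than knock-out 1 left 1 to 3 members called lower, where 4.72% to 6.6% of all genes were called lower. The members' share in those 5 fits was thus near the background. Ect2 alone was called in those 5 fits and in the fit without knock-out library 1.

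**Figure D1:**
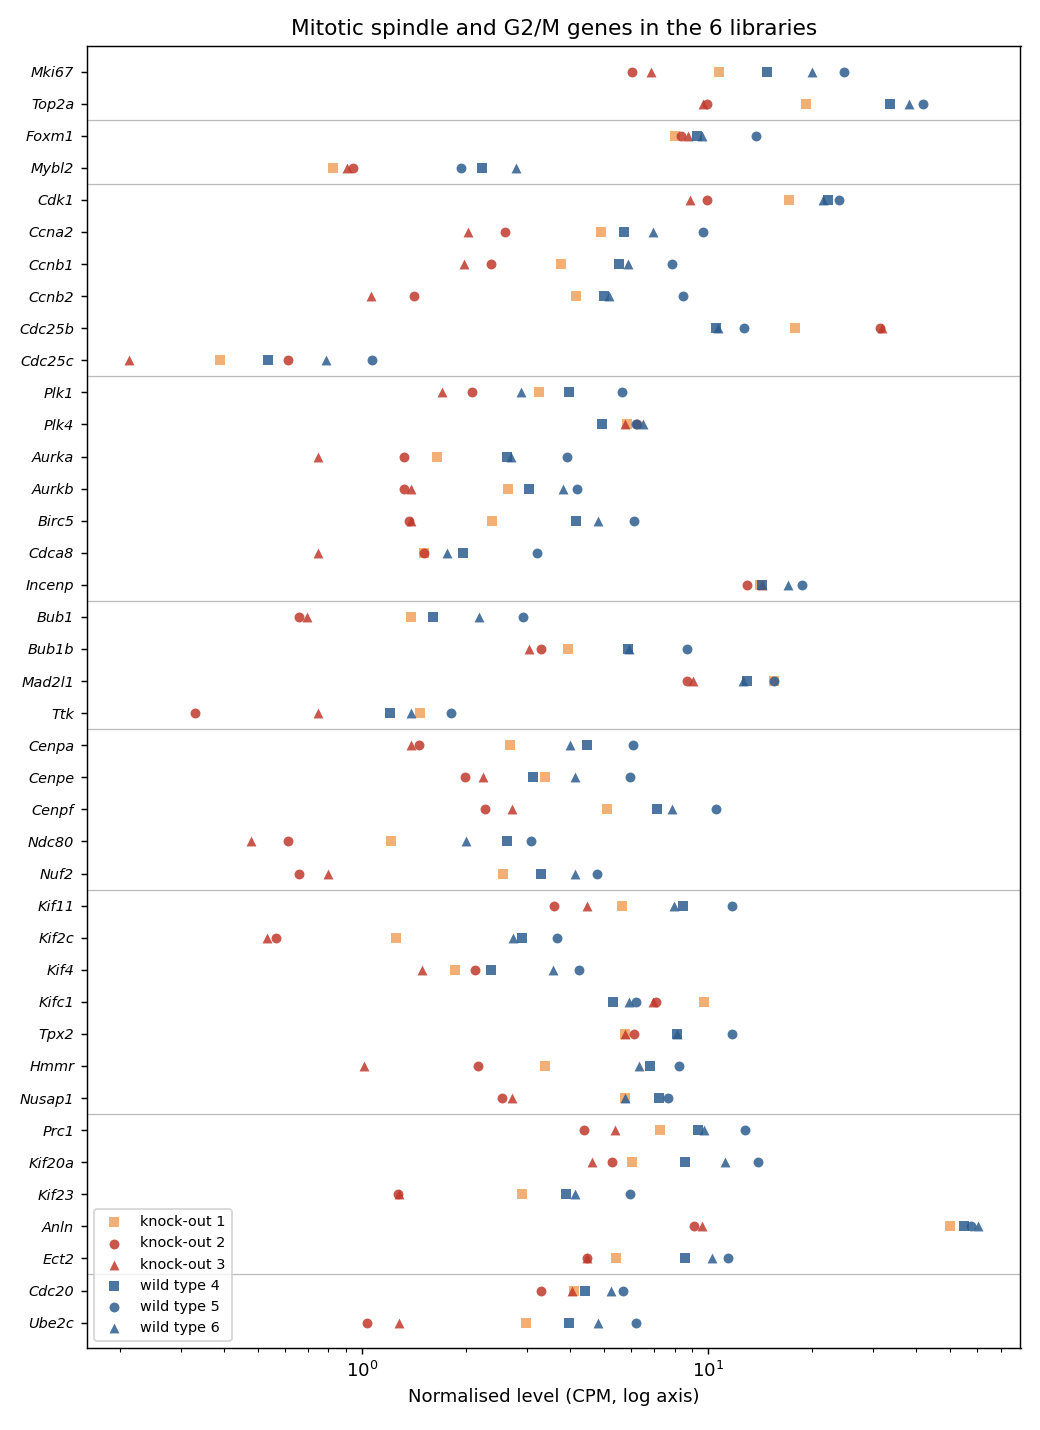
Level of each of the 40 members (CPM, log axis) in the 6 libraries, with members grouped by role between grey lines; orange and red symbols are knock-out libraries and blue symbols wild-type libraries. For 31 members the 3 knock-out levels lie left of the 3 wild-type levels, and knock-out library 1 (orange) often lies between the other knock-out libraries and the wild type.

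The fall was of unequal depth in the knock-out libraries. The median member stood at 62.2% of the wild-type mean in knock-out library 1 and at 39.4% and 38.4% in libraries 2 and 3. Library 1 lay above both other knock-out libraries for 32 members, and for 26 it lay between them and the wild type. It was still under every wild-type library for 32 members, within the wild-type range for 5 and above it for 3. Libraries 2 and 3 were both under the wild type for 36 members. The wild-type libraries differed too: library 5 was the highest of the wild type for 37 members and the highest of the 6 for 34. The members' summed level was 268, 173 and 173 CPM in the knock-out and 321, 420 and 351 CPM in the wild type.

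**Figure D2:**
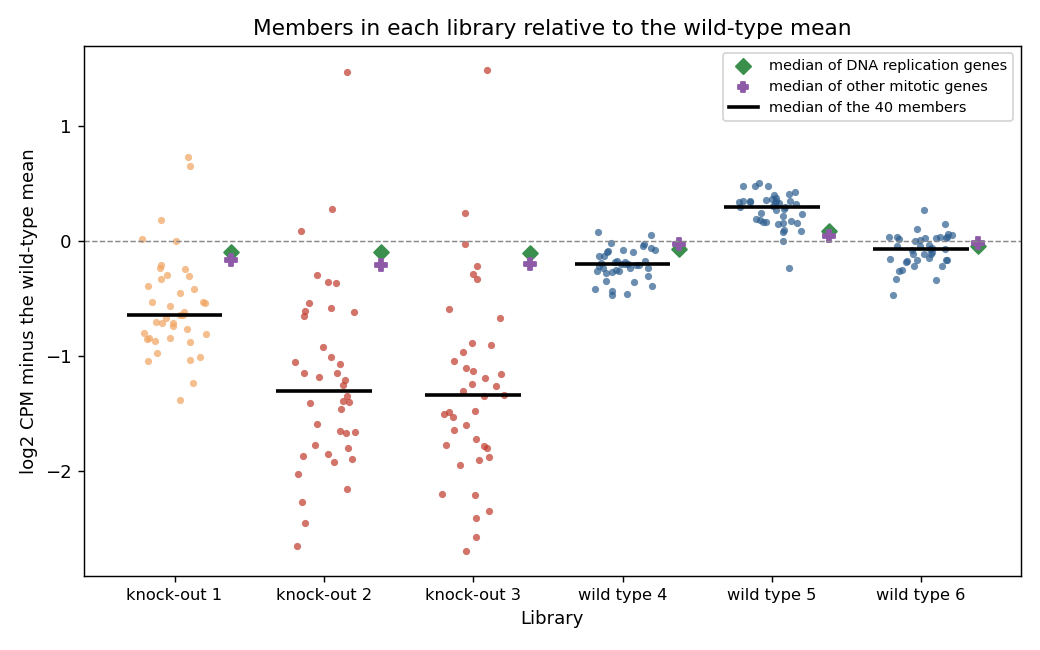
Each point is 1 of the 40 members, plotted as its log2 CPM minus the mean log2 CPM of the wild type in each library; black bars are medians of the members, green diamonds medians of the DNA replication genes and purple crosses medians of the other mitotic genes. The members' medians are -0.64, -1.30 and -1.34 in the knock-out, left to right, and -0.20, 0.30 and -0.065 on the wild-type side, while those of the other mitotic genes are -0.16, -0.21 and -0.20 in the knock-out and those of the DNA replication genes between -0.10 and 0.09 in all 6.

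The title of each library carries numbers whose meaning the labels do not give. It opens with a stem, KO2 for knock-out libraries 1 and 2 and KO5 for knock-out library 3. The stem is WT10 for wild-type library 4 and WT11 for wild-type libraries 5 and 6. Each close pair thus joins libraries of different stems. Between libraries of 1 stem the biological coefficient of variation was 44.6% (KO2) and 15.7% (WT11). Among libraries with the number 11 after the letter p, 1 knock-out and 2 wild type, the members' median log2 ratio was -0.70, with 36 lower. Among those with the number 12, 2 knock-out and 1 wild type, it was -1.25, with 38 lower. The last title number is 1 for knock-out library 1 and wild-type library 5, and 2 for the libraries of both close pairs. The libraries that stood highest within their genotype for most members thus share a number. Split by the last title number the median was -1.02 for 1 and -1.24 for 2, with 37 lower in each. The median was thus negative within each number. With the last number as a covariate in edgeR, 28 members were called lower, in a fit that called 2280 of all 12660 genes lower against 1736 without it. Among the 28 were Ccna2 (adjusted p = 0.0111), Ccnb2 (0.0132), Plk1 (0.041), Kif23 (0.00964) and Ube2c (0.013). That fit rests in large part on the small spread within the close pairs. With the pairs summed, edgeR gave these genes adjusted p-values from 0.306 (Ube2c) to 0.411 (Plk1). With the number after p as a covariate in edgeR, 16 members were called lower, in a fit that called 1616 of all 12660 genes (12.8%) lower. The calls of Aurka (adjusted p = 0.0702) and Tpx2 (0.0955) were lost there.

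The common marks of dividing cells fell. Mki67, which encodes the Ki-67 protein that coats mitotic chromosomes, measured 10.7, 6.03 and 6.86 CPM in the knock-out and 14.8, 24.7 and 19.9 CPM in the wild type. Its log2 fold change was -1.33 ± 0.29 (SE, adjusted p = 0.0226). Top2a, the topoisomerase that untangles sister chromatids, measured 19.2, 9.90 and 9.68 CPM in the knock-out and 33.5, 41.8 and 38.1 CPM in the wild type. The genotypes did not overlap for either gene, and the log2 fold change of Top2a was -1.55 ± 0.29 (adjusted p = 0.0151). Per kilobase of exon, Top2a was the second most abundant member in the wild type, at 7.24 CPM per kb, after Anln at 11.9, and Cdc25c was the lowest at 0.371.

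The 2 activating transcription factors gave different readings. Mybl2, which encodes B-MYB, measured 0.822, 0.943 and 0.904 CPM in the knock-out and 2.23, 1.93 and 2.78 CPM in the wild type, and fell by 1.37 on the log2 scale (SE 0.27, adjusted p = 0.0157). Its 3 knock-out libraries were alike, so library 1 did not stand apart here. Foxm1 measured 8.05, 8.34 and 8.78 CPM in the knock-out and 9.32, 13.7 and 9.64 CPM in the wild type, without overlap. Its log2 fold change of -0.38 ± 0.19 did not pass (adjusted p = 0.18), with a 95% interval from -0.84 to 0.08.

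Cdk1, the kinase that drives entry into mitosis, fell with cyclin B1. It measured 17.1, 9.90 and 8.88 CPM in the knock-out and 22.2, 23.9 and 21.5 CPM in the wild type (log2 fold change -0.91 ± 0.26, adjusted p = 0.049), a call that was lost with total counts (0.0536), with no filter (0.0521) and with the filter of 50 reads (0.0509). Ccnb1, which encodes the cyclin that activates it, measured 3.77, 2.36 and 1.97 CPM against 5.53, 7.85 and 5.88 CPM (-1.25 ± 0.31, adjusted p = 0.0317). Cyclin A2 (Ccna2, 4.89, 2.59 and 2.02 against 5.71, 9.66 and 6.95 CPM) and cyclin B2 (Ccnb2, 4.16, 1.41 and 1.06 against 4.99, 8.47 and 5.19 CPM) did not overlap between genotypes either. Neither passed, at log2 fold changes of -1.23 (adjusted p = 0.0661) and -1.48 (adjusted p = 0.102), and in both the knock-out library 1 level was close to that of the lowest wild-type library.

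The CDC25 phosphatases, which remove the inhibitory phosphates from Cdk1, gave another picture. Cdc25b, thought to start the activation of Cdk1 at the centrosome, rose: it measured 17.8, 31.3 and 31.8 CPM in the knock-out and 10.5, 12.7 and 10.7 CPM in the wild type. Every knock-out level was above every wild-type level, and knock-out library 1 again lay between, with a log2 fold change of 1.26 ± 0.25 (adjusted p = 0.0163). Its call was lost in the 5 fits that left out a library other than knock-out 1. Cdc25c, which sustains that activation, was near the limit of detection at 0.390, 0.613 and 0.213 against 0.535, 1.07 and 0.788 CPM, and its genotypes overlapped (adjusted p = 0.199).

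Of the 7 genes for Polo-like and Aurora kinases and the chromosomal passenger complex, 2 were called lower. Aurka, the kinase of spindle poles, measured 1.64, 1.32 and 0.745 CPM in the knock-out and 2.63, 3.91 and 2.69 CPM in the wild type (-1.31 ± 0.37, adjusted p = 0.0472), a call lost with no filter (adjusted p = 0.0596) and with libraries of 1 title stem summed (0.0758). Birc5, which encodes survivin, the passenger subunit that docks Aurora B on the centromere, measured 2.38, 1.37 and 1.38 against 4.15, 6.13 and 4.82 CPM (-1.55 ± 0.32, adjusted p = 0.0182). Its partners in the complex read -1.04 for the kinase Aurkb (adjusted p = 0.0743), -0.87 for borealin, Cdca8 (adjusted p = 0.158), and -0.27 for the scaffold Incenp (adjusted p = 0.165). Incenp measured 14.11, 12.96 and 14.31 against 14.36, 18.66 and 17.05 CPM, and its interval, -0.60 to 0.05, does not reach a 2-fold fall.

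The 2 Polo-like kinases were not called. Plk1, which acts at centrosomes, kinetochores and the midzone, measured 3.25, 2.07 and 1.70 against 3.97, 5.63 and 2.87 CPM, with knock-out library 1 inside the wild-type range (log2 fold change -0.83, adjusted p = 0.146). Plk4, which licenses centriole duplication, measured 5.84, 6.22 and 5.75 against 4.95, 6.21 and 6.49 CPM. Its estimate of 0.01 has a 95% interval from -0.40 to 0.43 and turned negative under other scaling (-0.082 with total counts).

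In the spindle checkpoint, which delays anaphase until kinetochores are attached, 1 of 4 genes was called. Bub1b, which encodes the checkpoint protein BubR1, measured 3.94, 3.30 and 3.03 CPM in the knock-out and 5.89, 8.72 and 5.93 CPM in the wild type (-0.998 ± 0.235, adjusted p = 0.0276). The kinase Bub1 measured 1.39, 0.660 and 0.692 against 1.61, 2.92 and 2.18 CPM and did not pass (-1.28, adjusted p = 0.07). Mad2l1, which encodes the MAD2 inhibitor of the anaphase-promoting complex, measured 15.5, 8.67 and 9.04 against 12.9, 15.5 and 12.6 CPM, so that knock-out library 1 was as high as the highest wild-type library (-0.30, adjusted p = 0.412). The checkpoint kinase Ttk, also called MPS1, showed the same split at a low level, with 1.47, 0.330 and 0.745 against 1.20, 1.81 and 1.39 CPM (-0.78, adjusted p = 0.327). Without knock-out library 1 all 4 were called lower, in a fit that called 33.7% of all genes lower and 32.6% higher.

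Among 5 centromere and kinetochore genes, 3 were called lower. Cenpa, the histone H3 variant that marks centromeres, measured 2.68, 1.46 and 1.38 CPM in the knock-out and 4.46, 6.08 and 3.98 CPM in the wild type (-1.39 ± 0.35, adjusted p = 0.0331). Cenpf, a large coiled-coil protein of the outer kinetochore, measured 5.11, 2.26 and 2.71 against 7.13, 10.5 and 7.88 CPM (-1.34 ± 0.36, adjusted p = 0.0404). Ndc80, a microtubule-binding subunit of the complex named after it, measured 1.21, 0.613 and 0.479 against 2.63, 3.08 and 1.99 CPM (-1.73 ± 0.43, adjusted p = 0.0317). None of these 3 overlapped between genotypes. Nuf2, which pairs with Ndc80 in that complex, read -1.59 and did not pass (adjusted p = 0.084), and knock-out library 1, at 2.55 CPM, lay nearer the wild type (3.30, 4.77 and 4.12 CPM) than libraries 2 and 3 did (0.660 and 0.798 CPM). Cenpe, the kinetochore kinesin, read -0.80 with overlap (adjusted p = 0.134).

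Of 7 spindle kinesins and microtubule proteins, 4 were called lower. Kif2c, also known as MCAK, which takes microtubule ends apart, had the steepest fitted fall of the 40: 1.26, 0.566 and 0.532 CPM in the knock-out and 2.90, 3.66 and 2.73 CPM in the wild type (-1.97 ± 0.41, adjusted p = 0.02). Kif11, the motor that pushes spindle poles apart, measured 5.63, 3.58 and 4.47 against 8.47, 11.8 and 7.97 CPM (-1.04 ± 0.25, adjusted p = 0.0285). Hmmr, a spindle pole protein, measured 3.38, 2.17 and 1.01 against 6.78, 8.22 and 6.30 CPM (-1.69 ± 0.43, adjusted p = 0.0355). Tpx2, which activates Aurora A on the spindle, changed least among the 18 called lower, from 8.11, 11.8 and 8.15 CPM in the wild type to 5.76, 6.13 and 5.75 CPM (-0.67 ± 0.19, adjusted p = 0.0497). The call of Tpx2 was lost with limma-voom (adjusted p = 0.0581), with no filter (0.0632) and with title stems summed (0.0634), and that of Hmmr with title stems summed (0.0573). Kifc1, the motor that clusters spindle poles, pointed the other way, at 9.74, 7.07 and 6.92 against 5.31, 6.21 and 5.93 CPM without overlap, and did not pass (0.44 ± 0.19, adjusted p = 0.135). Here knock-out library 1 was the highest of the 6. The chromosome kinesin Kif4 (-0.89, adjusted p = 0.0774) and the microtubule bundler Nusap1 (-0.90, adjusted p = 0.116) were not called.

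Of 5 genes of the central spindle and cytokinesis, 3 were called lower. Ect2, the exchange factor that positions the cleavage furrow, measured 5.41, 4.48 and 4.47 CPM in the knock-out and 8.61, 11.4 and 10.2 CPM in the wild type. Its log2 fold change was -1.07 ± 0.18 (adjusted p = 0.00961), and its 3 knock-out levels were close together. Prc1, which bundles midzone microtubules, measured 7.27, 4.38 and 5.37 against 9.36, 12.8 and 9.73 CPM (-0.91 ± 0.24, adjusted p = 0.0402). Kif20a, the midzone kinesin, measured 6.02, 5.28 and 4.63 against 8.61, 13.9 and 11.2 CPM (-1.08 ± 0.22, adjusted p = 0.0187). Kif23, the motor subunit of centralspindlin, read -1.35 and did not pass (adjusted p = 0.0576).

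Anln showed the widest split between knock-out libraries. The gene encodes anillin, the scaffold that links actin, myosin and septins in the contractile ring. It measured 49.99 CPM in knock-out library 1, beside 54.7, 57.6 and 60.3 CPM in the wild type, and 9.10 and 9.58 CPM in knock-out libraries 2 and 3. Library 1 was thus just under the wild type, and the fit over 3 libraries gave -1.33 ± 0.69 (adjusted p = 0.198). Without library 1 the log2 fold change was -2.63 (adjusted p = 1.56e-06). The knock-out spread in that edgeR fit is only that between the close libraries 2 and 3, and 33.7% of all genes were called lower. With the close pairs summed the log2 fold change of Anln was -0.96 (adjusted p = 0.561).

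The 2 partners of the anaphase-promoting complex were not called. Ube2c, the ubiquitin-conjugating enzyme that serves it, measured 2.99, 1.04 and 1.28 against 3.97, 6.21 and 4.82 CPM (-1.49 ± 0.46, adjusted p = 0.0581). Cdc20, the activator that brings it its mitotic substrates, measured 4.11, 3.30 and 4.04 against 4.41, 5.67 and 5.23 CPM (-0.42 ± 0.20, adjusted p = 0.159). Neither overlapped between genotypes. Over the 21 members that were not called, the 95% interval of 15 reaches a 2-fold fall, so a fall of that size lies within their error.

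**Figure D3:**
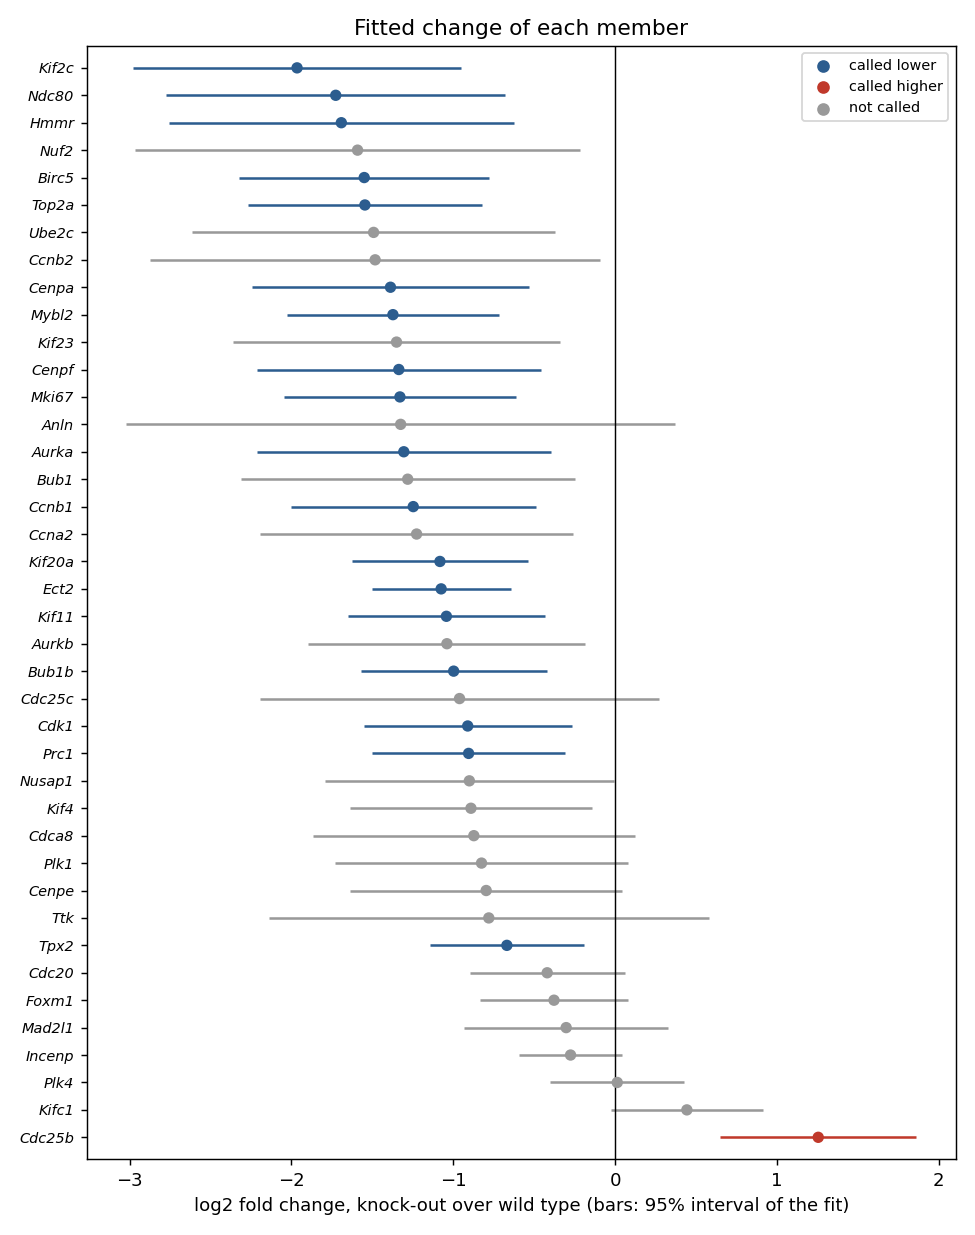
Fitted log2 fold change (knock-out over wild type) of each of the 40 members with its 95% interval from edgeR; blue marks the 18 called lower, red the 1 called higher and grey the 21 not called. The estimates run from -1.97 for Kif2c to 1.26 for Cdc25b, and the interval of Anln, from -3.02 to 0.37, is the widest.

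Exon junction and intron reads were also counted by the authors. Junction reads come from exons, so they largely repeat the exon counts and are not a separate reading. Intron reads come from other parts of the same genes. On the CPM scale, here over all exon reads of the library with no TMM factor, exon reads of the 40 members summed to 271.9, 163.2 and 163.1 for the knock-out, against 332.9, 431.8 and 364.1 for the wild type, a ratio of group means of 0.530. Junction reads, which come from spliced RNA, gave a ratio of 0.491, against 0.977 over all genes, and were lower in the knock-out for 38 of 40 members. Intron reads, which come mostly from unspliced RNA, over the 40 members together numbered 375, 287 and 275 for the knock-out, against 406, 508 and 451 for the wild type. Their ratio on that scale was 0.696, against 0.935 over all genes, with 32 members lower and 8 higher. These sums were not tested, and the difference between the exon and intron ratios was not tested either.

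**Figure D4:**
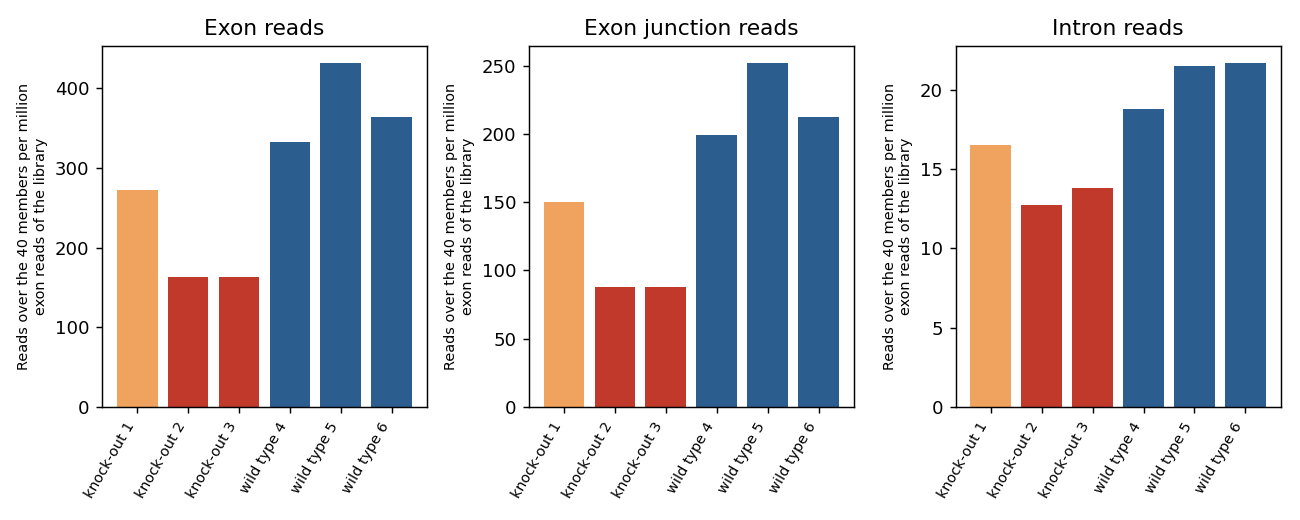
Exon, exon junction and intron reads summed over the 40 members, each as CPM over the exon reads of the library, for the 6 libraries (bars start at 0; orange and red are knock-out, blue wild type). In each of the 3 classes all knock-out bars are lower than all wild-type bars.

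Some of these reads could belong to neighbours. A stranded kit was used, but how strand was handled in counting is not known here, and so reads of members that overlap a gene on the other strand are uncertain. The overlap is 2327 bases for Kif20a with Cdc23, 21810 for Prc1 with Rccd1, 863 for Ccna2 with Exosc9, 832 for Kif4 with Pdzd11, 172 for Nusap1 with Oip5, 53 for Cdc20 with Elovl1, 2264 for Cdca8 with 9930104L06Rik and 334 for Cdc25b with Spef1. Reads that map to 1 place only were under 95% of the total for 4 members, Prc1 (83.1%), Kifc1 (87.6%), Ccna2 (88.7%) and Kif20a (92.7%). Counting unique reads alone left 18 members called lower and 1 higher, in a fit that called 13.8% of all genes lower.

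The rest of the mitotic machinery was near the background among called-lower genes. Of 113 other mitotic genes, 112 were tested, 18 (16.1%) were called lower and 6 (5.36%) higher, beside 13.7% and 14.1% of all tested genes, and their median log2 fold change was -0.09. Other spindle, centrosome and cytokinesis genes gave 10 lower (37.0%) and 0 higher of 27 tested, with a median of -0.69. Spag5, which encodes the spindle protein astrin, measured 1.73, 1.23 and 1.38 against 3.88, 5.06 and 3.43 CPM (-1.51 ± 0.27, adjusted p = 0.0121). The most abundant genes of that list, Numa1 (0.17, adjusted p = 0.131) and Ckap5 (0.29, adjusted p = 0.104), were not called. No difference between these lists and the 40 members was tested.

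Other centromere and kinetochore genes gave 2 lower and 2 higher of 36 (5.56% each, under the background of 13.7% and 14.1%), with a median of -0.34. Spc24, a subunit of the Ndc80 complex, fell to 1.04, 0.377 and 0.904 CPM from 2.54, 3.12 and 2.78 CPM (-1.86 ± 0.41, adjusted p = 0.0235). Pmf1, a subunit of the MIS12 complex that anchors Ndc80, rose (0.84, adjusted p = 0.0136), while Hjurp, the chaperone of Cenpa, read -0.05 and Zwint -0.01, with adjusted p = 0.825 and 0.932. Condensin, cohesin and separase genes gave 1 lower (5.88%) and 3 higher (17.6%) of 17, with a median of 0.13. The cohesin subunits Rad21 (188, 223 and 227 against 147, 130 and 141 CPM, 0.61 ± 0.10, adjusted p = 0.0103) and Smc3 (0.50, adjusted p = 0.0092) rose, and Stag2 was not called (0.41, adjusted p = 0.0639). Cohesin also acts outside mitosis, in folding chromosomes.

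Genes of mitotic entry, exit and the anaphase-promoting complex gave 5 lower (15.6%, near the background of 13.7%) and 1 higher (3.12%) of 32, with a median of -0.02. Mastl, the Greatwall kinase that protects Cdk1 substrates from PP2A, fell to 2.03, 1.74 and 1.76 CPM from 4.01, 4.97 and 4.22 CPM (-1.25 ± 0.21, adjusted p = 0.00994) and was called in each of the 6 fits that left out a library. Gtse1, a microtubule protein that also restrains p53, rose (1.13, adjusted p = 0.0102). The core subunits Anapc1 (-0.06, adjusted p = 0.663) and Anapc5 (0.01, adjusted p = 0.978) were not called.

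Cell cycle transcription regulators gave 4 higher (18.2%, near the background of 14.1%) and 1 lower (4.55%) of 22, with a median of 0.02. The 2 of smallest p were pocket protein genes. Rbl2, which encodes p130, the pocket protein of DREAM in resting cells, measured 112, 114 and 110 CPM in the knock-out and 67.0, 73.9 and 72.3 CPM in the wild type (0.65 ± 0.07, adjusted p = 0.00307). Rb1, the retinoblastoma protein gene, measured 34.5, 38.4 and 36.5 against 22.7, 20.3 and 24.4 CPM (0.70 ± 0.10, adjusted p = 0.00631). Both were called in each of the 6 fits that left out a library, and in neither did knock-out library 1 stand apart. The MuvB subunit Rbbp4 (-0.01, adjusted p = 0.96) and the E2F partner Tfdp1 (-0.10, adjusted p = 0.527) were not called.

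DNA replication genes, which act in the phase before, gave 4 called lower and 4 higher of 42, 9.52% each and so under the background of 13.7% and 14.1%, with a median of -0.05. Rrm2, the ribonucleotide reductase subunit that is made in S phase, fell to 4.89, 3.21 and 2.23 CPM from 9.81, 14.6 and 10.5 CPM (-1.75 ± 0.33, adjusted p = 0.015). Its partner subunit Rrm1 measured 60.3, 150 and 151 against 87.0, 87.2 and 86.5 CPM, with knock-out library 1 under and libraries 2 and 3 above the wild type (0.47, adjusted p = 0.342). Rpa1, which coats single-stranded DNA, rose (0.71, adjusted p = 0.0281), as did Orc6 of the origin recognition complex (0.52, adjusted p = 0.0171).

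Markers of cell type differed between libraries as well. All tested mesothelial markers separated the genotypes, while most fibroblast markers did not. Mesothelial markers summed to 153, 65.5 and 62.2 CPM in the knock-out and 2397, 2369 and 2478 CPM in the wild type, with 6 of 6 tested markers called lower and no read of Krt8 or Krt18 in the knock-out. Fibroblast markers summed to 4029, 5609 and 5917 against 3696, 3730 and 3613 CPM, with 2 of 6 called higher and 4 overlapping between genotypes. Their median log2 ratio to the wild-type mean was 0.003 in knock-out library 1, against 1.81 and 1.97 in libraries 2 and 3. Endothelial markers summed to 2.16, 6.69 and 6.12 against 1.29, 0.534 and 0.695 CPM, with the 1 tested marker, of 5, called higher. Leukocyte markers summed to 1.08, 2.22 and 1.44 against 4.28, 3.58 and 2.87 CPM, with 1 of 2 tested markers called lower, and Ptprc, Adgre1 and Itgam had no read in any library. The part of these markers in the fall of the mitotic genes was not tested.

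The labelled cell type was only partly borne out by its markers. Among smooth muscle genes, Acta2 measured 73.8, 546 and 525 against 69.2, 51.9 and 101 CPM (adjusted p = 0.0633), and Smtn rose (82.2, 108 and 104 against 63.8, 63.6 and 74.4 CPM, adjusted p = 0.0296). Tagln (16.9, 24.0 and 23.3 against 16.9, 14.9 and 19.2 CPM) and Lmod1 (2.94, 16.7 and 15.3 against 4.55, 3.82 and 8.01 CPM) were not called. Cnn1 fell, to 0.606, 0.236 and 0.266 from 1.69, 1.32 and 3.20 CPM (adjusted p = 0.0246). The defining genes were scarce: Myh11, the smooth muscle myosin, had 5, 54 and 67 reads in knock-out cells against 3, 3 and 1 in wild-type cells, and Myocd and Des had at most 4 reads in any library.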

How the data were processed

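Poly(A)-selected RNA of 6 libraries, made from 1 ug of total RNA each, was used as the authors deposited it, in 1 table of whole-number read counts per gene and library, not normalized, which covers exons (in all and unique reads), exon junctions and introns. Exon length, another value of the deposited table, served only for levels per kilobase. The genome build was GRCm38 (mm10), per the submitters' processing notes, and the aligner, counter and strand handling were not given in the sources that were used. Genotypes came from the labels. The test on all exon reads was edgeR 4.0.16 under R 4.3.3 (filterByExpr with a minimum count of 10, TMM scaling, quasi-likelihood F test on genotype alone, Benjamini-Hochberg adjustment over 12660 genes, threshold 0.05). Standard errors are the log2 fold change over the root of F. CPM are counts over the TMM-scaled library size, with a prior count of 2 where log2 CPM are plotted. The script was tested on simulated data.

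The members, the companion lists and the markers were chosen with earlier results of these data known, so counts over them are descriptions and no list was tested. Named genes are the 40 members, Nt5e, each smooth muscle marker, and from each companion list the 2 of highest mean CPM and the 2 of smallest p, of which 1 spindle gene is not reported here. The other marker lists are given as counts and sums, and Krt8, Krt18, Ptprc, Adgre1 and Itgam were picked after seeing their values. Alternatives were DESeq2 1.42.0 and limma-voom (limma 3.58.1), other scaling and filters, unique reads, title numbers as covariates, libraries summed, and leaving out each library. Promoters were taken from RefSeq windows (GRCm38.p6). Figures came from matplotlib 3.10.9 (Python 3.11.15).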

Additional observations from a re-analysis of the deposited data

How the results depend on the processing

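Depth limits the members of few reads, and the close likeness of 2 pairs of libraries limits how far any count of calls can be read. With 18 members called lower and 1 higher by edgeR, DESeq2 gave 25 lower, limma-voom 20, total counts 17, and the last title number as a covariate 28, while of all 12660 genes 1736 were called lower in the reported fit and 2281, 1917, 2022 and 2280 in these. Summing each nearly identical pair left 0 members called lower and 0 higher, 0 and 0 of the other mitotic genes, and 0 and 0 of the DNA replication genes; at an unadjusted p under 0.05 in the same fit, 13 members, 11 other mitotic genes and 4 replication genes were lower, and 1, 5 and 2 were higher, where 10.6% and 9.65% of all genes were; the other mitotic genes (9.73% lower) and replication genes (9.52% lower) were thus at the background. The other mitotic genes called higher rose from 6 to 10 with DESeq2, and those called lower fell from 18 to 11 with no filter. Over all tested genes, those called higher rose from 1788 to 2373 with DESeq2. The share called lower fell from 13.7% to 10.1% with no filter. Leaving out 1 library at a time, members called lower numbered 1 to 32 and members called higher 0 to 1. Other mitotic genes numbered 2 to 47 lower and 1 to 20 higher, and replication genes 0 to 12 lower and 0 to 12 higher. Over all tested genes, 4.72% to 33.7% were called lower in these fits, and 513 to 4172 genes were called higher. The highest of these values came without knock-out library 1. The members' median log2 fold change lay between -0.92 and -1.36 in these 6 fits. The direction of each member was the same in every fit made, except for Plk4, whose estimate near 0 turned negative with total counts (-0.082), with the number after the letter p as a covariate (-0.025), with pairs summed (-0.00484), without knock-out library 2 (-0.020) and without wild-type library 4 (-0.098), and reached 0.088 without wild-type library 6. The cause of these changes was not tested. With total counts 40.1% of all called genes were higher, against 50.7% with TMM scaling. The filter of 50 reads in 3 libraries left 34 members tested. The sample numbers, 1 to 3 and 4 to 6, are not shared between genotypes and pair no libraries; the numbers shared in the titles, of unknown meaning, were fitted only as covariates, with 16 members called lower for the number after the letter p and 28 for the last number.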
